A study of Arabidopsis thaliana with 12 samples.

Results

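Nuclear auxin signalling in Arabidopsis thaliana was described through 50 genes of the 37336 genes counted. They were the 6 TIR1/AFB receptors, 29 Aux/IAA repressors and 15 ARF (auxin response factor) genes, taken by gene identifier as members of their families. All 50 were found in the count files and in the gene annotation. The RNA came from untreated seedlings 7 days old, either wild type (WT) or the double mutant pi4kβ1β2, in which T-DNA insertions knock out both genes of the β type of phosphatidylinositol 4-kinase, the enzymes that make the membrane lipid phosphatidylinositol 4-phosphate. The mutant is 1 line, and each root sample pooled the RNA of many plants. There were 4 groups of 3 libraries, named WT_root, pi4kB1B2_root, WT_leaf and pi4kB1B2_leaf, and each library held from 38116716 to 46577151 reads that matched a gene on its own strand. Levels are given as normalized CPM (counts scaled by library size and TMM factor over the 12 libraries), always in the order of replicates 1, 2 and 3.

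Auxin is perceived in the nucleus. The F-box proteins TIR1 and AFB1 to AFB5 hold auxin together with an Aux/IAA protein, which is then tagged with ubiquitin and degraded. Until then the Aux/IAA protein sits on an ARF bound to DNA and keeps the target gene silent through the TOPLESS co-repressor. Many Aux/IAA genes are themselves targets of ARFs, so that auxin raises the transcripts of its own repressors. ARF5, ARF6, ARF7, ARF8 and ARF19 are known as activators of transcription and most of the other ARFs as repressors.

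The labels were checked first. In roots PI4Kβ1 (73.4, 79.0 and 71.0 CPM in WT against 48.6, 47.3 and 48.5 in pi4kB1B2) and PI4Kβ2 (14.6, 16.2 and 14 against 7.19, 7.50 and 6.64) both fell, and neither was at 0. In leaves PI4Kβ2 was at 11.8, 4.68 and 12.1 CPM in WT and at 10.9, 6.32 and 6.71 in pi4kB1B2, so that WT_leaf replicate 2 and pi4kB1B2_leaf replicate 1 stood with the other label. MRD1, a gene near 0 in all mutant roots (0.668, 1.44 and 0.334 CPM against 43.3, 45.1 and 46.4), showed the same exchange in leaves, with 44.1, 0.85 and 46.0 CPM in WT and 46.2, 1.08 and 1.21 in pi4kB1B2. Leaf comparisons are therefore comparisons by label, and their counts are given with and without these 2 libraries. The summed CPM of 9 photosynthesis genes was 104 to 370 in roots and 39520 to 56040 in leaves, and that of 7 root genes 300 to 338 in roots and 32.5 to 82.8 in leaves, where WT_leaf replicate 2 was the highest.

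The first question was whether these genes differed between mutant and WT roots. Of the 44 members that passed the filter on low counts (a CPM of 1 or more in 3 or more root libraries), 10 were lower and 4 higher in pi4kβ1β2 roots at an adjusted p under 0.05 (edgeR quasi-likelihood test, Benjamini-Hochberg over 19694 genes). Over all genes tested 15.2% were called lower and 11.3% higher, against 22.7% and 9.09% of the members tested. The receptors did not pass the test, 4 of 23 Aux/IAA genes did (1 higher, 3 lower), and 10 of 15 ARF genes did (3 higher, 7 lower). The median log2 fold change was -0.07 for Aux/IAA genes, -0.16 for ARF genes and 0.01 for all genes tested. The largest differences were those of IAA3 and IAA27. Where the root groups of a called member are said below not to overlap, this is part of the call and no separate evidence. Members not called, such as AFB1, AFB5, IAA10, ARF6 and ARF7, did not overlap in roots either. The share without overlap over all genes was not counted.

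IAA3 (AT1G04240, chr1:1128149-1129689, minus strand, 3 exons), also known as SHY2, is the repressor through which cytokinin limits auxin output in the root meristem. Its level was 20.4, 17.6 and 17.4 CPM in WT roots and 7.03, 5.42 and 7.89 CPM in pi4kβ1β2 roots. Every mutant library was below every WT library, and the log2 fold change was -1.44 ± 0.14 (SE, n = 3 per group, adjusted p = 0.00049, edgeR). IAA27 (AT4G29080, chr4:14323296-14325361, minus strand), a repressor of the IAA8, IAA9 and IAA27 group, was at 49.7, 44.9 and 50.9 CPM in WT roots and at 21.9, 23.4 and 22.1 CPM in mutant roots. The 2 groups of libraries were far apart, with a log2 fold change of -1.11 ± 0.06 (SE, adjusted p = 3.2e-05, edgeR). Its relatives differed less: IAA8 had a log2 fold change of -0.15 (adjusted p = 0.056, edgeR) and IAA9 of 0.00 (adjusted p = 0.99, edgeR), neither past the test. DESeq2 called IAA8 lower (adjusted p = 0.037), and the root groups of IAA8 did not overlap.

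The third Aux/IAA gene that fell in roots was IAA18 (11.1, 10.9 and 11.2 CPM against 9.41, 8.47 and 8.37; log2 fold change -0.34 ± 0.07, SE, adjusted p = 0.0086, edgeR), whose gain-of-function alleles disturb apical patterning in embryos. It was not past the test in 1 fit of all 12 libraries (adjusted p = 0.17). IAA7 (AT3G23050), known as AXR2, was the only Aux/IAA gene called higher in this test, at 54.0, 55.4 and 53.4 CPM in WT roots and 66.7, 65.3 and 71.9 in mutant roots. The groups did not overlap, and the log2 fold change was 0.33 ± 0.05 (SE, adjusted p = 0.0019, edgeR), again not past the test in the fit of all 12 libraries (adjusted p = 0.20). IAA1 was at 16.0, 12.4 and 8.48 CPM against 19.1, 18.0 and 20.9, which did not pass (log2 fold change 0.65, adjusted p = 0.097, edgeR) although the groups did not overlap and DESeq2 called it higher (adjusted p = 0.0033). IAA20 was close to the filter, at 0.76, 0.623 and 0.514 CPM against 0.903, 1.04 and 1.04. It met the filter, which used CPM before TMM scaling, only through the mutant libraries. It was not past the test either (log2 fold change 0.66, adjusted p = 0.051, edgeR).

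**Figure D1:**
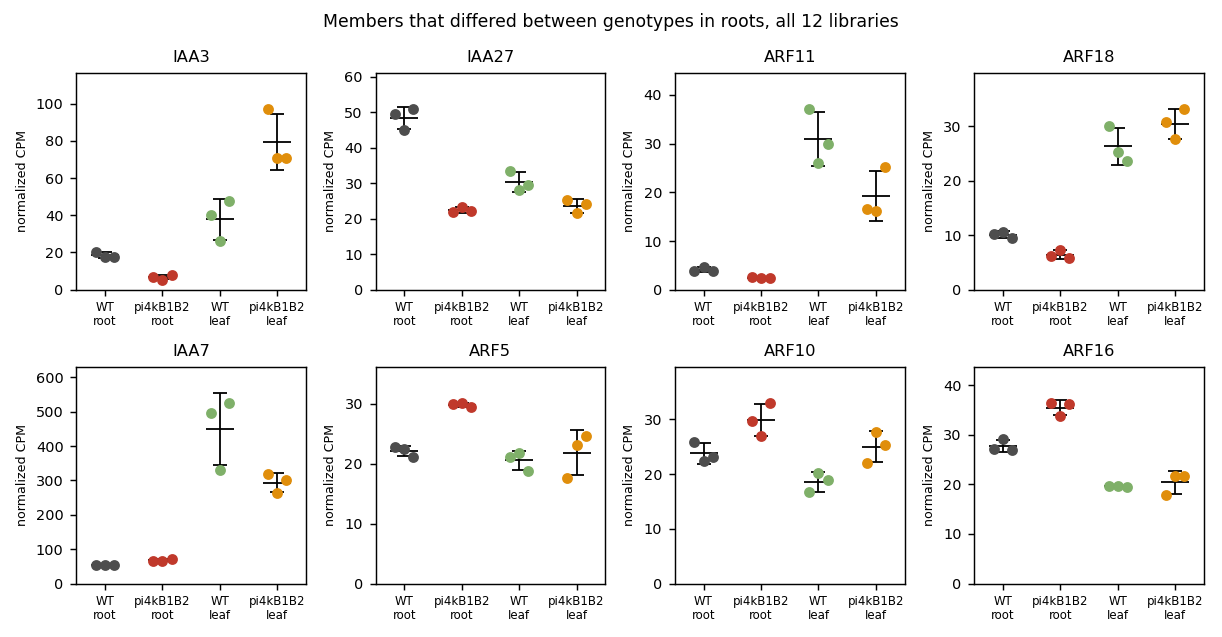
Normalized CPM (y axis, from 0) of 8 members called between genotypes in roots, in each of the 12 libraries by group; points are libraries, the horizontal bar is the mean and the error bar 1 SD of 3 libraries. In the root groups IAA3, IAA27, ARF11 and ARF18 lie lower and IAA7, ARF5, ARF10 and ARF16 higher in all 3 pi4kB1B2 libraries than in all 3 WT libraries, and IAA3 stands the other way round in leaves.

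Degradation of an Aux/IAA protein depends on its degron, a short stretch around the residues Gly-Trp-Pro-Pro that is held by TIR1 and auxin. An in-frame run of codons for these residues was found in the longest RefSeq coding sequence (assembly TAIR10.1) of 23 of the 29 Aux/IAA genes and not in IAA20, IAA30, IAA31, IAA32, IAA33 and IAA34. The 4 Aux/IAA genes called in roots all had it. Their coding bases are shown with those of IAA5 and IAA19, which carry the leaf difference below, since this is the site where the receptors act; capitals mark the 4 codons.
IAA3: cagattgttGGATGGCCACCAgttagatct
IAA27: caagtggtgGGATGGCCACCAataagatca
IAA18: ccagtggtgGGATGGCCTCCGgttcgatcc
IAA7: caagtggtgGGATGGCCACCTgtgaggaac
IAA5: caagttgtgGGTTGGCCACCGgtttgttcg
IAA19: caggtggtgGGGTGGCCACCGgtttgttct

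Of the Aux/IAA genes, 3 pairs are neighbours in divergent orientation, IAA3 with IAA17 on chromosome 1 (6388 bases between them), IAA2 with IAA7 on chromosome 3 (12510 bases) and IAA14 with IAA1 on chromosome 4 (10732 bases). The difference between the partners was not tested in any pair, and IAA1 did not pass the root test. IAA17 (known as AXR3) was at 100, 113 and 110 CPM in WT roots and at 115, 92.6 and 101 in mutant roots beside the lower IAA3. IAA2 was at 85.7, 65.9 and 55.7 CPM against 49.8, 68.8 and 64.0 beside the higher IAA7. IAA17, IAA2 and IAA14 did not pass the root test, and their log2 fold changes were -0.07, -0.18 and -0.09.

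Among the ARF genes of roots, 3 rose. ARF5 (AT1G19850), known as MONOPTEROS and needed to found the embryonic root, was at 22.7, 22.4 and 21.1 CPM in WT and at 29.9, 30.1 and 29.4 in pi4kβ1β2 (log2 fold change 0.43 ± 0.04, SE, adjusted p = 0.0004, edgeR). ARF16 (AT4G30080), which with ARF10 restricts stem cells of the root cap, was at 27.2, 29.1 and 26.9 CPM against 36.4, 33.7 and 36.2 (log2 fold change 0.36 ± 0.05, SE, adjusted p = 0.0017, edgeR). ARF10 (AT2G28350) was at 25.9, 22.4 and 23.1 CPM against 29.7, 27.0 and 33.0 (log2 fold change 0.33 ± 0.09, SE, adjusted p = 0.027, edgeR). In all 3 genes every mutant root library was above every WT root library, which is part of the call and no separate evidence. The ARF10 call was lost without WT_root replicate 2 or 3, without pi4kB1B2_root replicate 1 or 3 and in the fit of all 12 libraries (adjusted p up to 0.10 over 13 alternatives).

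ARF10, ARF16 and ARF17 are cleaved under the guidance of miR160, so their sites are shown to see which members share one. The mature miR160a-5p from RefSeq (TAIR10.1, chr2:16340282-16340302, plus strand) and miR393a-5p, which acts on the receptors (chr2:16652111-16652132, plus strand), are written with the seed, bases 2 to 8, in capitals.
miR160a-5p: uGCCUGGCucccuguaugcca
miR393a-5p: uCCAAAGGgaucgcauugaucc
In the members' longest transcripts the best ungapped match with at most 4 unpaired bases lay in ARF10 (chr2:12115741-12115761), ARF16 (chr4:14704141-14704161) and ARF17 (chr1:29274189-29274209) for miR160a-5p, and in TIR1 (chr3:23273727-23273748), AFB1, AFB2 and AFB3 for miR393a-5p. All of these sites were in coding exons, and capitals in the sites mark bases that do not form a standard pair.
ARF10: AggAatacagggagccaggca
ARF16: GggTTtacagggagccaggca
ARF17: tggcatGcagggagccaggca
TIR1: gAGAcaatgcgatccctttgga
AFB2: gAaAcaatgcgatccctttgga
Of the genes with a miR160 site, ARF17 did not rise with ARF10 and ARF16: it was at 9.25, 9.65 and 10.7 CPM in WT roots and at 9.99, 10.7 and 9.51 in mutant roots (log2 fold change 0.03, adjusted p = 0.82, edgeR). A match of this kind is a description of the sequence, and the microRNAs were not analysed here. ARF6 and ARF8 held the same kind of match to miR167a-5p, with 4 and 3 unpaired bases.

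Lower ARF transcripts in roots came from 7 genes. ARF11 was at 3.87, 4.75 and 3.83 CPM in WT and at 2.67, 2.36 and 2.36 in pi4kβ1β2 (log2 fold change -0.75 ± 0.12, SE, adjusted p = 0.0037, edgeR). ARF18 was at 10.3, 10.7 and 9.47 CPM against 6.17, 7.33 and 5.78 (log2 fold change -0.66 ± 0.10, SE, adjusted p = 0.0025, edgeR). Both belong to the repressor group around ARF1, and both kept their call in all 13 alternatives. ARF1 itself was at 50.5, 47.0 and 47.0 CPM against 35.4, 39.6 and 37.9 (log2 fold change -0.35 ± 0.05). ARF2, a repressor known from seed size and senescence, was at 106, 110 and 92.3 CPM against 80.0, 85.7 and 83.2 (log2 fold change -0.31 ± 0.07). ARF9 was at 35.6, 35.2 and 31.1 CPM against 27.6, 28.8 and 26.9 (log2 fold change -0.29 ± 0.06), and these 3 calls held in all 13 alternatives.

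The remaining lower calls were smaller. ARF3 (ETTIN), which sets organ polarity, was at 17.8, 17.7 and 20.7 CPM in WT roots and at 15.3, 15.9 and 15.5 in mutant roots (log2 fold change -0.26 ± 0.07, SE, adjusted p = 0.031, edgeR). Its call was lost without any single pi4kB1B2_root library and in the fit of all 12 libraries (adjusted p up to 0.083). ARF8 was at 41.6, 46.0 and 42.0 CPM against 37.8, 38.8 and 39 (log2 fold change -0.16 ± 0.05, adjusted p = 0.041, edgeR), and passed in only 3 of 13 alternatives (adjusted p up to 0.39). ARF4, a target of the trans-acting RNA from TAS3 like ARF2 and ARF3, did not pass (22.7, 21.8 and 18.5 CPM against 15.6, 18.1 and 20.6; log2 fold change -0.21, adjusted p = 0.24, edgeR). The activators ARF6, ARF7 and ARF19 had log2 fold changes of -0.10, -0.14 and 0.00 and did not pass.

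The 6 receptors were not past the test in roots. By edgeR 0 of 6 were called, 1 of 6 had an unadjusted p under 0.05, and DESeq2 called 0 of 6. TIR1 (AT3G62980) was at 83.0, 86.7 and 86.7 CPM in WT roots and at 87.3, 89.2 and 85.0 in pi4kβ1β2 roots (log2 fold change 0.03 ± 0.04). AFB5, the receptor of the picolinate auxins, came closest to a call, at 56.5, 61.0 and 58.4 CPM against 53.2, 54.7 and 52.7 (log2 fold change -0.13, adjusted p = 0.059, edgeR). The log2 fold changes of the other 4 lay between -0.08 (AFB4) and 0.11 (AFB1). AFB4 is read with care, because 79% of its reads over the 12 libraries were on the opposite strand and only reads on the gene's own strand were counted.

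Other genes of the pathway were also compared in roots. None of the 17 genes of the ubiquitin ligase, its regulators and the TOPLESS family was called by edgeR (2 had an unadjusted p under 0.05) or by DESeq2. Of all genes tested in roots, edgeR called 26.6%. The co-repressor TPL was at 138, 151 and 144 CPM in WT roots and at 150, 151 and 149 in mutant roots, and the cullin CUL1 at 220, 232 and 218 against 222, 225 and 229. Of 5 measured genes of the small RNA route to ARF2, ARF3 and ARF4, AGO7, the Argonaute that loads miR390, was lower (5.54, 4.49 and 4.64 CPM against 4.04, 3.64 and 2.94; log2 fold change -0.47, adjusted p = 0.047, edgeR).

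Some cell type lists held many called genes in roots, where 11.3% of all genes were called higher and 15.2% lower. Of 5 root meristem genes 3 were called higher and 1 lower (PLT1, PLT2 and WOX5 against SYP111), with summed levels of 107 to 108 CPM in WT and 105 to 108 in pi4kβ1β2. Of 5 endodermis genes 4 were called lower (311 to 339 CPM in sum against 226 to 234), and of 5 genes of lateral root founding 3 were called higher (11.1 to 15.2 CPM against 19.2 to 29.9). Of 9 photosynthesis genes 2 were called lower (22.2%, near the share of all genes; 195 to 370 CPM against 104 to 197), of 7 root genes 1 was called higher and 2 lower (317 to 338 CPM against 300 to 325), and of 5 root hair genes 0 (1 with an unadjusted p under 0.05, 1 by DESeq2). In bulk RNA fewer cells of a type and less RNA per cell cannot be told apart, and the part of these lists in the members' differences was not tested.

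The root libraries of 1 group also differed among themselves. The clock genes ELF4 (21.6, 43.4 and 48.6 CPM in WT; 40.9, 18.6 and 15.6 in pi4kβ1β2) and TOC1 (61.5, 83.3 and 74.2; 82.0, 63.9 and 52.1) varied within both genotypes. IAA13, a repressor of ARF5 activity close to IAA12, varied in the other direction, at 59.8, 37.9 and 38.7 CPM in WT roots and at 25.8, 39.1 and 57.7 in mutant roots. IAA11 did likewise (11.4, 9.36 and 8.96; 8.84, 11.9 and 15.4). The groups overlapped for both genes (log2 fold change -0.15 for IAA13 and 0.29 for IAA11, neither past the test), and the part of the clock genes in this spread was not tested. Of 9 core clock genes 0 were called in roots by edgeR or by DESeq2, and 2 had an unadjusted p under 0.05.

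The second comparison was that of leaf libraries by label. Of 46 members that passed the filter in leaves, 15 were higher and 3 lower in libraries labelled pi4kB1B2 (edgeR, adjusted over 19470 genes), where 3.72% of all genes tested were called higher and 6.76% lower. Aux/IAA genes made up 13 of the 15 higher members, out of 25 Aux/IAA genes tested, and their median log2 fold change was 0.49 against 0.00 for all genes tested. The other 2 were ARF2 and ARF19, and the 3 lower were IAA34, ARF6 and TIR1. The filter used CPM before TMM scaling. IAA34 passed it only through the 3 WT libraries, where it was higher, and was tested in 10 of 14 alternatives. IAA5 and IAA6 would not have passed without the libraries labelled pi4kB1B2, so these 3 calls are not independent of the filter. With RLE scaling in place of TMM 14 were higher and 0 lower. In all 18 genes the 3 libraries of each label did not overlap, including the 2 libraries whose MRD1 and PI4Kβ2 levels went against their labels. The calls came from these same libraries, so this separation is part of the call and no separate evidence. Members not called, such as IAA7 and AFB1, did not overlap either, and the share without overlap over all genes was not counted.

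IAA5 (AT1G15580, chr1:5365512-5366497, minus strand, 3 exons), a classic early auxin-induced gene, differed most. It was at 0.968, 1.105 and 1.204 CPM in WT leaves and at 10.4, 8.33 and 7.88 CPM in leaves labelled pi4kB1B2, a log2 fold change of 3.00 ± 0.18 (SE, n = 3 per group, adjusted p = 0.0039, edgeR). It was called in all 14 alternatives. IAA30 was at 2.23, 1.36 and 1.83 CPM against 7.22, 9.93 and 11.3 (log2 fold change 2.37 ± 0.26), and it lacks the degron core. IAA19 (MSG2), which restrains growth toward light in the hypocotyl, was at 34.0, 23.6 and 28.2 CPM against 82.9, 104 and 111 (log2 fold change 1.77 ± 0.17). The adjusted p was 0.011 for IAA30 and 0.0094 for IAA19 (edgeR).

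The next members in order of p were IAA13, ARF19, IAA1, IAA14, IAA16, IAA2 and ARF2. IAA13 was at 31.5, 25.4 and 31.6 CPM in WT leaves and at 58.8, 69.6 and 69.3 in leaves labelled pi4kB1B2 (log2 fold change 1.14 ± 0.11). ARF19, an activator that acts with ARF7 in lateral root formation, was at 13.7, 15.3 and 12.8 CPM against 23.3, 24.6 and 23.8 (log2 fold change 0.75 ± 0.09). IAA1 was at 30.9, 24.8 and 25.9 CPM against 71.2, 57.4 and 55.2 (log2 fold change 1.15 ± 0.13). In these genes the higher group lay well clear of the lower one. IAA14 (SLR), which blocks lateral root initiation when stabilised, was at 8.95, 10.09 and 8.95 CPM against 20.7, 17.6 and 16.1 (log2 fold change 0.94 ± 0.12). IAA16 was at 208, 205 and 212 CPM against 394, 323 and 325 (log2 fold change 0.71 ± 0.10). IAA2 was at 211, 140 and 182 CPM against 526, 388 and 432 (log2 fold change 1.31 ± 0.18). ARF2 was at 179, 163 and 171 CPM against 255, 229 and 248 (log2 fold change 0.49 ± 0.07), so that its leaf direction was opposite to that in roots.

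IAA3 was at 40.1, 26.0 and 47.6 CPM in WT leaves and at 96.9, 70.5 and 70.6 in leaves labelled pi4kB1B2 (log2 fold change 1.05 ± 0.25, SE, adjusted p = 0.050, edgeR), just inside the threshold and called in 6 of 14 alternatives (adjusted p 0.0009 to 0.14). IAA6 (2.73, 1.05 and 2.352 CPM against 5.93, 6.11 and 5.75), IAA29 (47.5, 17.3 and 39.8 against 95.2, 104 and 136), IAA12 and IAA8 were also called higher, with log2 fold changes of 1.52, 1.66, 0.39 and 0.33 and adjusted p between 0.037 and 0.045 (edgeR). Of the lower genes, IAA34 was at 2.347, 1.45 and 2.90 CPM against 0.577, 0.586 and 1.05 (log2 fold change -1.61), ARF6 at 51.8, 54.6 and 58.6 against 40.8, 39.7 and 47.3 (-0.39) and TIR1 at 83.6, 76.6 and 76.8 against 65.9, 65.6 and 66.9 (-0.28). Their adjusted p lay between 0.044 and 0.049 (edgeR). With the replicate number as a block, IAA12 (adjusted p = 0.070), IAA6 (0.058) and TIR1 (0.067) were no longer past the edgeR test. The block in turn brought IAA4 (log2 fold change 0.54, adjusted p = 0.046) and ARF10 (0.40, adjusted p = 0.041) past it as higher, and IAA7 (-0.61, adjusted p = 0.042) and IAA27 (-0.38, adjusted p = 0.043) as lower.

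The leaf counts depended on single libraries. Without WT_leaf replicate 1, WT_leaf replicate 3 or pi4kB1B2_leaf replicate 2, only 2, 1 and 1 members were called higher and 0 lower, and without pi4kB1B2_leaf replicate 3 the counts were 9 and 0. IAA5 was called in each of these fits. Without pi4kB1B2_leaf replicate 1 the counts were 12 and 0, and without WT_leaf replicate 2 they were 14 and 2. Each of the 18 kept its direction in every alternative that tested it. Without both libraries that went against their labels, with 2 libraries per label, 22 of 47 members were called higher and 8 lower, beside 13.7% and 14.4% of all genes. IAA5, IAA19 and IAA30 then had log2 fold changes of 2.88, 1.77 and 2.37, and IAA3 one of 0.67. Of the 18 members called with all libraries, ARF6 alone was no longer past the test (-0.36, adjusted p = 0.053, edgeR). IAA6, IAA29 and IAA2 were at 1.204, 1.44 and 1.04 on the log2 scale, closer to 0 than with all libraries. Newly called higher were IAA4, IAA11, IAA17, IAA20, ARF9, ARF10 and AFB1. Of these, IAA20 passed the filter only through the libraries labelled pi4kB1B2. Newly called lower were IAA7 (-0.87, adjusted p = 0.0017, edgeR), IAA27 (-0.48, adjusted p = 0.014, edgeR), AFB3, AFB5, ARF3 and ARF8.

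Other transcripts moved with the leaf labels. Of 9 core clock genes, a list added after the values were seen, 5 were called lower in leaves labelled pi4kB1B2 and 1 higher. TOC1 was at 92.1, 94.1 and 79.9 CPM in WT leaves and at 29.3, 31.9 and 32.9 in leaves labelled pi4kB1B2 (log2 fold change -1.52, adjusted p = 0.0036, edgeR). PRR5 was at 71.5, 58.5 and 70.6 CPM against 8.88, 15.5 and 19.1, and LHY at 1.26, 1.87 and 2.15 against 17.4, 10.8 and 8.50. GI, ELF4 and LUX were lower too, with log2 fold changes of -1.21, -2.83 and -1.13. TOC1, PRR5 and LHY, like the Aux/IAA genes called, followed the label in all 6 leaf libraries, whereas MRD1 and PI4Kβ2 did not. The clock genes and the Aux/IAA genes were picked or called from these same libraries. The part of the clock phase of the samples in the Aux/IAA difference was not tested, and label and clock genes cannot be told apart within these 6 libraries. Of 9 photosynthesis genes 2 were called higher, and their summed level was 39520 to 45670 CPM in WT leaves and 47840 to 56040 in leaves labelled pi4kB1B2, with no overlap. No tested gene of the root, root meristem, root hair, endodermis or lateral root founding lists was called by label by edgeR, had an unadjusted p under 0.05 or was called by DESeq2, the count being 0 in each list. Only 1 of 5 genes of lateral root founding and 6 of 7 root genes passed the filter and were tested. Without the 2 libraries against their labels, 5 of 9 photosynthesis genes, 2 of 6 root genes, 1 of 5 root meristem genes, 2 of 5 endodermis genes and 2 of 2 tested genes of lateral root founding were called higher, beside 13.7% of all genes. The part of these cell types in the members' differences was not tested. Of 17 machinery genes 1 was called (ASK2, an adaptor of the ligase, log2 fold change -0.38, adjusted p = 0.045, edgeR), or 5.88% beside 10.5% of all genes tested.

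**Figure D2:**
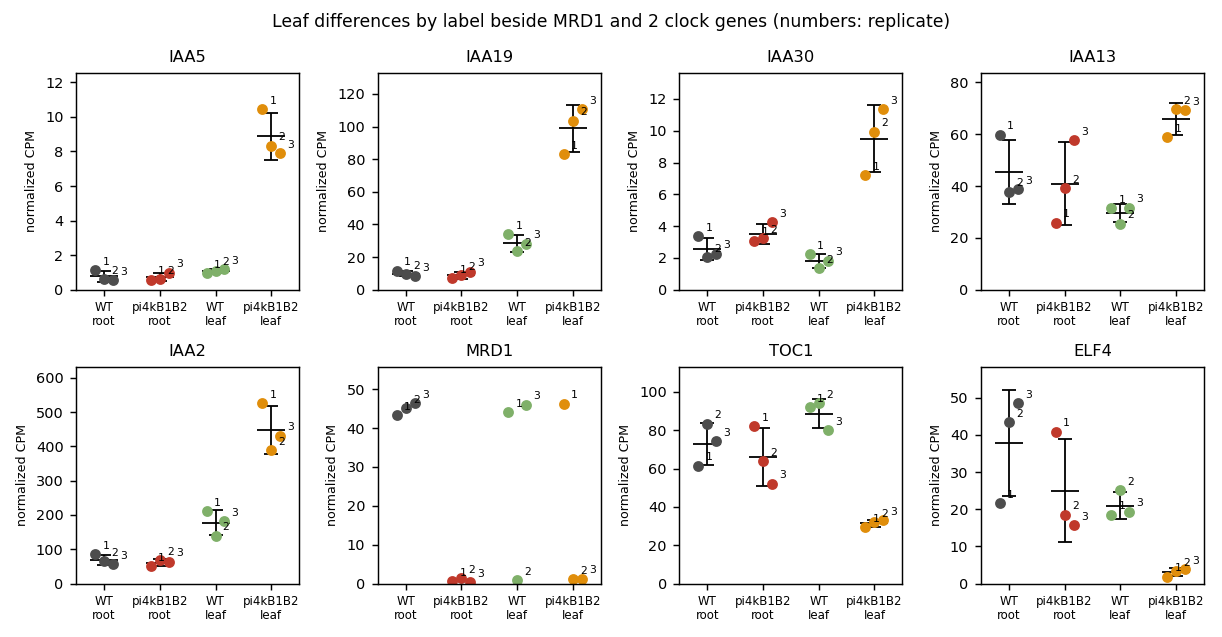
Normalized CPM (y axis, from 0) of 5 Aux/IAA genes, MRD1 and the clock genes TOC1 and ELF4 in each of the 12 libraries; points are libraries numbered by replicate, and the bars are the mean and 1 SD of 3 libraries (none is drawn for MRD1). IAA5, IAA19, IAA30, IAA13, IAA2, TOC1 and ELF4 separate the leaf labels in all 6 leaf libraries, whereas MRD1 puts WT_leaf replicate 2 and pi4kB1B2_leaf replicate 1 with the other label.

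ARFs bind auxin response elements, of which TGTCTC and TGTCGG are among the known forms and the only ones searched here. Both motifs were searched on both strands from 250 bases before to 50 bases after each gene start in TAIR10.1, and no 2 matches in the members overlapped. At least 1 of them was present in 16 of 29 Aux/IAA promoters (55.2%), 3 of 15 ARF promoters (20%) and 1 of 6 receptor promoters (16.7%), and in 18.7% of the windows of 27443 protein-coding genes. TGTCTC was in 41.4% of Aux/IAA windows against 14.2% of all, and TGTCGG in 20.7% against 5.12%. Of the 13 Aux/IAA genes called higher in leaves 9 held a match (the others were IAA2, IAA3, IAA14 and IAA29), of the 11 tested and not called 3 did, and IAA34, the 1 called lower, did as well. In roots 1 of the 4 Aux/IAA genes called held one, IAA27.

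Upstream stretches are printed for 5 Aux/IAA genes chosen for carrying a match: IAA5, IAA30, IAA19 and IAA6, with large leaf differences, and IAA20, the relative of IAA30. IAA29, with a larger leaf difference than IAA6, held none. They are read on the strand of the gene from 10 bases before the first match to 10 bases after the last one upstream of the start. IAA5 (chr1:5366549-5366733, minus strand) held 3 matches, starting 226, 97 and 67 bases before the gene start. IAA19 (chr3:5263807-5263888, plus strand) held 3 copies of TGTCTC within 82 printed bases. IAA6 (chr1:19673816-19673841, minus strand), IAA30 (chr3:22995620-22995645, plus strand) and IAA20 (chr2:19307635-19307660, plus strand) held 1 upstream match each. Capitals mark the motifs, in which GAGACA and CCGACA are the same motifs on the other strand.
IAA5: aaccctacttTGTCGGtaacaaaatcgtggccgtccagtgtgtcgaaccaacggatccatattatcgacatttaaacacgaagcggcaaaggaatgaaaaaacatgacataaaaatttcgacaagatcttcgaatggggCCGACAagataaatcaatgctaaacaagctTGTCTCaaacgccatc
IAA19: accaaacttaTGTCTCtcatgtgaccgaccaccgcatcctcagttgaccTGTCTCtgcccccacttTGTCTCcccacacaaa
IAA6: acccaacataTGTCTCtcatgtgacc
IAA30: ttaacaacacTGTCTCatcattccac
IAA20: tagcggacgcTGTCTCatcattccac
The relatives IAA19 and IAA6 shared 23 bases around the first copy, and IAA30 and IAA20 shared 18 bases around theirs. IAA20 was below the filter in leaves, which used CPM before TMM scaling (after scaling 0.44, 0.794 and 0.688 CPM in WT against 1.08, 1.23 and 1.64). Without the 2 libraries against their labels it was tested and called higher (log2 fold change 1.32, adjusted p = 0.032, edgeR). It then passed the filter only through the libraries labelled pi4kB1B2, so the call is not independent of the filter. The presence of a motif in a window is a description and says nothing of binding.

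The difference between organs was itself tested. For 19 of 45 members the genotype difference in roots differed from the difference by label in leaves (edgeR interaction term), with 17 lower and 2 higher in roots relative to leaves, where 12.4% and 10.6% of all 20169 genes were called lower and higher. For IAA3 the contrast was -2.51 ± 0.32 (SE) on the log2 scale (adjusted p = 0.00094, edgeR), with a lower level in mutant roots and a higher one in leaves labelled pi4kB1B2. ARF2 had the same opposite directions (-0.82, adjusted p = 0.00081), and IAA7 the reverse, called higher in roots and at 495, 331 and 525 CPM in WT leaves against 318, 263 and 301 in leaves labelled pi4kB1B2 (leaf log2 fold change -0.64, adjusted p = 0.080, past the test with the replicate block, adjusted p = 0.042, and in DESeq2, 0.018; contrast 0.94, adjusted p = 0.0099, edgeR). For IAA5, IAA14, IAA16, IAA19 and ARF19 the contrast of -3.09, -1.06, -0.82, -1.92 and -0.78 came with root differences that were not past the test or, for IAA5, with root levels below the filter. For IAA27 (contrast -0.75) both organs went the same way, with leaf levels of 33.4, 28.0 and 29.6 CPM against 25.3, 21.6 and 24.2 that did not overlap (leaf log2 fold change -0.38, adjusted p = 0.057 by edgeR, 0.043 with the replicate block and 0.030 by DESeq2), and the root difference was the larger one. IAA8 (-0.51) and ARF9 (-0.55) completed the 10 with the smallest p. IAA8 was at 137, 130 and 140 CPM in WT roots and 119, 128 and 120 in mutant roots, and at 205, 188 and 189 in WT leaves and 257, 232 and 253 in leaves labelled pi4kB1B2. ARF9, called lower in roots, was at 25.5, 26.9 and 25.7 CPM in WT leaves and at 30.2, 29.6 and 33.4 in leaves labelled pi4kB1B2. IAA5 would not have passed the filter on the 12 libraries without the leaf libraries labelled pi4kB1B2, where it was high. Its call is therefore not independent of the filter, and it was tested in 13 of 19 alternatives. All 10 kept the call in every alternative that tested them, including the fit without both doubtful leaf libraries. In that fit 3 members were called higher and 17 lower, beside 13.9% and 20.2% of 19582 genes.

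**Figure D3:**
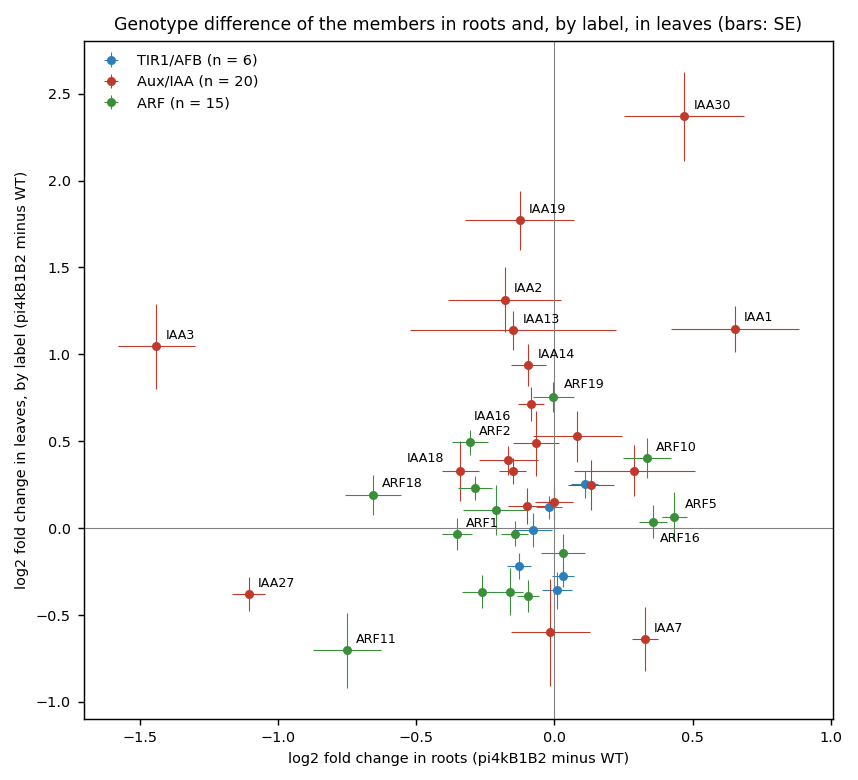
Log2 fold change of pi4kB1B2 against WT in roots (x axis) and by label in leaves (y axis) for the 41 members tested in both organs, 6 receptors, 20 Aux/IAA and 15 ARF genes; bars are the SE. IAA3 lies at -1.44 and 1.05, IAA30 at 0.47 and 2.37, IAA19 at -0.12 and 1.77, and the receptors lie between -0.13 and 0.11 on the root axis and between -0.36 and 0.25 on the leaf axis.

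The third comparison was root against leaf. Of 45 members, 15 were higher and 25 lower in roots (edgeR, both genotypes weighted equally), where 42.3% and 42.1% of 20169 genes were called higher and lower. Within WT the counts were 15 and 20 (37.9% and 38.2% of all genes) and within pi4kβ1β2 12 and 27 (39.8% and 39.9%). Without both doubtful leaf libraries 14 were higher and 25 lower in roots, beside 43.1% and 41.6% of all genes. Of 24 Aux/IAA genes 15 were lower and 6 higher in roots, of 15 ARF genes 7 and 6, and of the receptors 3 and 3. The median log2 difference was -0.63 for Aux/IAA genes and 0.00 for all genes.

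The members most on the leaf side were IAA29, ARF11, IAA7 and IAA19. IAA29, a target of the phytochrome-interacting factors, was at 0.471 to 0.809 CPM in the 6 root libraries and at 17.3 to 136 CPM in leaves, a log2 difference of -6.54 ± 0.30. It passed the filter only through the leaf libraries, where it was high, so its place in this order is not independent of the filter. ARF11 was at 2.36 to 4.75 CPM in roots and at 37.0, 25.9 and 29.9 (WT) and 16.5, 16.2 and 25.2 (pi4kB1B2) in leaves, a log2 difference of -2.93 ± 0.14. IAA7 was -2.58 ± 0.11 and IAA19 -2.50 ± 0.15 on the log2 scale. In none of the 4 did a root library reach a leaf library. They were picked for their large differences, so this separation is part of the choice and no separate evidence. The share of all genes without overlap between organs was not counted.

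The members most on the root side were IAA33, IAA31, IAA28 and IAA17. IAA33, which lacks the degron core and is known for a role at the root tip, was at 1.09, 1.30, 1.52, 1.30, 1.30 and 1.56 CPM in roots and at 0.147, 0.425, 0.086, 0.203, 0.247 and 0.216 CPM in leaves, a log2 difference of 2.59 ± 0.27. It passed the filter only through the root libraries, where it was high, and IAA31 would not have passed without them. The places of IAA33 and IAA31 in this order are not independent of the filter. IAA31 was at 2.41 to 3.90 CPM in roots and at 0.44, 1.39 and 0.86 (WT) and 0.441, 0.802 and 0.804 (pi4kB1B2) in leaves (1.90 ± 0.25). IAA28, a repressor known from lateral root founder cells, was at 73.5, 94.8 and 92.8 (WT) and 101, 79.1 and 77.6 CPM (pi4kB1B2) in roots and at 26.9, 49.2 and 26.0 (WT) and 16.7, 27.1 and 24.7 in leaves (1.63 ± 0.19). IAA17 was at 92.6 to 115 CPM in roots and at 29.1, 49.4 and 39.8 (WT) and 58.4, 55.7 and 54.0 in leaves (1.16 ± 0.11). Root and leaf libraries did not overlap in these 4 genes, which is again part of how they were picked and no separate evidence. In WT leaves replicate 2 was the highest for all 4, as it was for the summed root genes (32.5, 82.8 and 43.6 CPM), and the part of root tissue in that library was not tested.

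**Figure D4:**
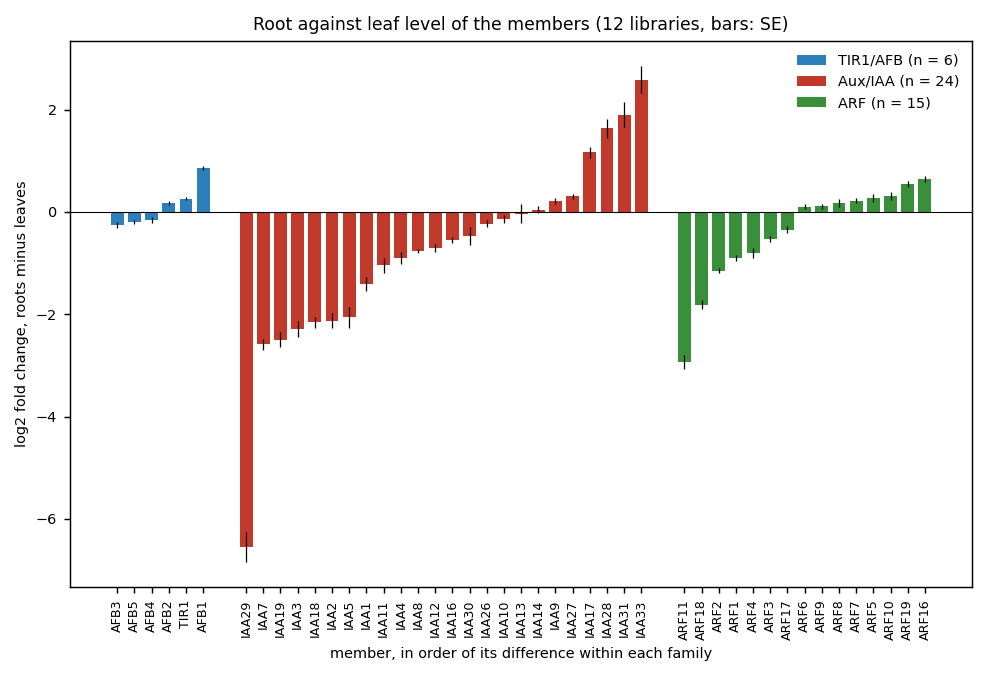
Log2 fold change of roots against leaves (y axis; positive is higher in roots) for the 45 members tested, ordered within each family; bars are the estimate from 12 libraries and the error bars its SE. Aux/IAA genes reach from -6.54 (IAA29) to 2.59 (IAA33), ARF genes from -2.93 (ARF11) to 0.65 (ARF16) and receptors from -0.25 (AFB3) to 0.86 (AFB1). IAA29 passed the filter only through leaves and IAA33 only through roots.

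Levels of different genes were compared only per kilobase of exon. In WT roots AFB1 led the receptors (48.1 CPM per kb), followed by TIR1 (32.3), AFB2 (27.0), AFB5 (23.2), AFB3 (17.4) and AFB4 (5.23). In WT leaves the order was TIR1 (29.8), AFB5 (27.3), AFB1 (25.0), AFB3 (23.4), AFB2 (22.7) and AFB4 (5.68), values that lay closer together. AFB1, which acts in rapid auxin responses of the root, was the receptor with the largest organ difference (105, 113, 117, 124, 118 and 120 CPM in roots; 57.0, 59.3, 58.2, 64.2, 71.8 and 74.9 in leaves; log2 difference 0.86 ± 0.04). Among Aux/IAA genes IAA9 (169 CPM per kb), IAA16 (93.5) and IAA17 (81.8) were the most abundant in WT roots, and IAA7 (236), IAA9 (138) and IAA2 (131) in WT leaves. ARF2 led the ARF genes in both organs, with 26.6 CPM per kb in WT roots and 44.2 in WT leaves.

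Summed over the family, Aux/IAA transcripts were at 1373, 1302 and 1288 CPM in WT roots and at 1187, 1261 and 1324 in pi4kβ1β2 roots, ranges that overlapped. In leaves the sums were 1982, 1615 and 1949 CPM for WT and 2647, 2411 and 2598 for the label pi4kB1B2, with no overlap. The ARF sums were 501, 509 and 472 CPM against 446, 458 and 461 in roots, and the receptor sums 369, 385 and 398 against 391.5, 388 and 383. Only the ARF sum separated the root genotypes. In leaves the ARF sums were 639, 581 and 627 CPM for WT and 663, 654 and 720 for the label pi4kB1B2. They did not overlap there either, and the direction was opposite to that in roots.

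Members below the filter were read as counts. In roots IAA5 had 28 to 56 counts per library, IAA6 11 to 29, IAA15 0 to 2, IAA29 24 to 46, IAA32 4 to 17 and IAA34 9 to 26. In leaves IAA15 had 0 to 6 counts, IAA20 15 to 53, IAA31 13 to 49 and IAA33 3 to 15. These genes were not tested in that organ. IAA6, at 0.543, 0.564 and 0.474 CPM in WT roots and at 0.216, 0.264 and 0.229 CPM in pi4kβ1β2 roots, nevertheless had no overlap between the genotypes, an observation made after its values were seen. IAA15, with at most 6 counts in any library, allows no comparison at this depth. For IAA15 and IAA32 54% and 91% of reads at the locus were on the opposite strand, and for ARF7 21%.

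The genes most like IAA3 over the 12 libraries, by Pearson correlation of log2 CPM among 20168 genes, were AT3G57780 (r = 0.995), AT5G62220 (GT18, r = 0.988) and AT4G13530 (r = 0.985). AT3G57780 was at 8.32, 7.37 and 8.30 CPM in WT roots, 3.99, 3.33 and 3.66 in mutant roots, 12.5, 9.18 and 14.7 in WT leaves and 26.4, 20.4 and 19.3 in leaves labelled pi4kB1B2. The genes most like IAA5 were IAA16 (r = 0.987), AT5G05750 (r = 0.981) and AT3G58640 (r = 0.980). The same 12 libraries, their organs and labels underlie each of these values.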

How the data were processed

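Whole-organ polyA RNA was sequenced with a stranded TruSeq kit and single-end reads. Per the labels and the methods of the study, the authors trimmed the reads, removed ribosomal sequences, aligned them with STAR to the TAIR10 genome and deposited raw counts per gene of reads that map to 1 gene only, without regard to strand and for each strand. The counts of the library's own strand were used (95.0% to 96.8% of gene reads); 2.67% to 2.97% of reads lay in rows that name no gene and were left out. Genes that reached 1 CPM in 50% or more of the libraries compared were kept, TMM scaled and tested across all genes with edgeR 4.0.16 (quasi-likelihood, robust; R 4.3.3), adjusted by Benjamini-Hochberg at a threshold of 0.05; the SE is the log2 fold change divided by the square root of F. Fits used the 6 libraries of an organ, or all 12 for organ and interaction contrasts. The fit was checked on simulated counts.

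Alternatives were DESeq2 1.42.0, the likelihood ratio test, RLE scaling, no filter, counts without strand, a replicate block, 1 fit of all 12 libraries, each library left out, and both doubtful leaf libraries left out. Deviations of same-numbered libraries had r = 0.37, 0.66 and 0.14 in leaves for numbers 1, 2 and 3, and -0.04, 0.32 and 0.60 in roots. Pairs with unlike numbers reached 0.15 in leaves and 0.51 in roots. These values do not settle a pairing by number in either organ. Replicate pairs differed by more than counting noise (chi-square per degree of freedom 8.89 to 54.8). How the replicates were grown apart is not detailed in the labels, so p-values measure the spread between these samples. The members and lists were chosen with earlier results of these data known. Values per library were given for members called in roots, for the 10 smallest p in leaves and in the interaction, for the 4 largest differences in each direction between organs, and for IAA3 and IAA5; the clock list and MRD1 were added after values were seen. Gene models, coding sequences, promoters and microRNAs came from RefSeq TAIR10.1, whose build differs in name from that of the count files, so coordinates are those of TAIR10.1. Levels per kb used the union of exons. Python 3.11.15, pandas 2.3.3 and matplotlib 3.10.9 were used.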

Additional observations from a re-analysis of the deposited data

Results flagged for a closer look

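The genotype difference in roots and the difference by label in leaves were not the same for 19 members, by the interaction term of edgeR. Some of these calls were weak: ARF1, IAA13, IAA18 and TIR1 were called in 7, 10, 13 and 18 of 19 alternatives. Without both doubtful leaf libraries IAA13 and ARF1 were not past the test (adjusted p = 0.082 and 0.05005, edgeR). The contrast (root minus leaf, log2) was -3.09 for IAA5, -2.51 for IAA3, -1.93 for IAA30, -1.92 for IAA19, -1.52 for IAA2, -1.31 for IAA13 and -1.06 for IAA14. It was -0.87 for ARF18, -0.82 for ARF2, -0.82 for IAA16, -0.78 for ARF19, -0.75 for IAA27, -0.69 for IAA18, -0.58 for IAA12, -0.55 for ARF9, -0.51 for IAA8 and -0.34 for ARF1. It was 0.28 for TIR1 and 0.94 for IAA7. IAA5 was below the filter in the root fit. It would not have passed the filter on all libraries without the leaf libraries labelled pi4kB1B2, where it was high. Its contrast is therefore not independent of the filter. The leaf side of each contrast rests on labels that MRD1 and PI4Kβ2 contradict in 2 of 6 libraries and that clock genes follow in all 6; the part of either was not tested.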

How the results depend on the processing

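Of the root calls of single members, 161 of 182 values over the alternatives stayed past the threshold and 21 did not. In leaves the numbers were 163 and 84 of 247, in the interaction 327 and 28 of 355, and between organs 714 and 25 of 741, where 2 more values changed sign: with counts taken without regard to strand, the organ difference was 0.12 for AFB3 and 0.41 for AFB4, a gene with 79% of its reads on the opposite strand. The root counts, 4 higher and 10 lower, became 2 and 7 (9 called) in 1 fit of all 12 libraries, 0 and 4 (4 called) with a log2 fold change of at least 0.5, and 0 and 2 (2 called) with at least 1. The count of members lower in leaves, 3, became 7 with DESeq2, 5 with the likelihood ratio test, 0 with RLE scaling, 0 without a filter, 9 (28 called in all) in 1 fit of all 12 libraries and 8 (30 called in all) without both doubtful leaf libraries. Where the cause of such a change is not the number of libraries or genes fitted, the cause was not tested. Of all members, 16% held TGTCGG, against 40% that held either motif.

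Leaving out 1 library at a time gave 3 to 7 members higher, 8 to 10 lower and 11 to 17 called in roots, 1 to 14 higher, 0 to 2 lower and 1 to 16 called in leaves, and 1 to 4 higher, 13 to 17 lower and 15 to 20 called in the interaction. Between organs 36 to 39 were called. The replicate number as a block gave 4 higher and 9 lower members in roots and 15 and 4 in leaves. A pairing by number was not settled in either organ. Besides IAA12, IAA6 and TIR1 in leaves, ARF8 in roots, ARF9 between organs and ARF1 in the interaction lost the call under the block. IAA4, ARF10, IAA7 and IAA27 in leaves, ARF8 between organs and AFB3 in the interaction gained one. Within single genotypes the organ calls of TIR1 (WT) and of ARF9 and ARF10 (pi4kβ1β2) were lost. With 3 libraries per group, small differences and members below the filter are where these data are weakest.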
